A study of Bos taurus with 31 samples.

Results

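The phase II conjugation enzymes of bovine liver are described here as 35 of the 24616 genes in the raw count table, chosen by symbol alone as glutathione transferases (GSTA, GSTM, GSTP, GSTT, GSTO, GSTK, GSTZ and the microsomal MGST), sulfotransferases (SULT) and UDP-glucuronosyltransferases and their relatives (UGT). Of these, 32 had at least 20 reads summed over all cows and were tested among 15916 genes. The 3 that were not tested were *SULT4A1* with 11 reads, *SULT6B1* with 1 read and 1 of the 2 rows named *SULT1C4* (ENSBTAG00000026672) with 0 reads in 31 cows. The symbols *GSTA3* and *GSTM1* also stand on 2 rows each, and all 4 of these rows were tested.

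Biopsies of liver were taken in week 16 of a feeding trial from 31 lactating German Holstein cows, 1 library per cow. CON_HC (8 cows) received a control ration with 60% concentrate on a dry matter basis and CON_LC (8 cows) a control ration with 30%. GLY_HC (8 cows) and GLY_LC (7 cows) received the same concentrate feed proportions (CFP), with peas, wheat grain and straw that carried residues of the glyphosate formulation Roundup Record from treatment of the crop before harvest. GLY therefore stands for residues of the whole formulation, and glyphosate and its co-formulants cannot be told apart. By the study's account, CON cows also took in a little glyphosate. Exposure per body weight was higher in GLY_HC than in GLY_LC, so these groups do not differ in concentrate alone. Samples of 1 further GLY_LC cow were lost, and cows had been allotted to groups by lactation number, feed intake, body weight and fat corrected milk yield.

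Conjugation makes lipophilic compounds water-soluble by attaching a polar group, so that they can leave with bile or urine. Glutathione transferases attach glutathione to electrophiles, sulfotransferases transfer sulfate from the donor PAPS to phenols, steroids and bile acids, and UDP-glucuronosyltransferases transfer glucuronic acid from UDP-glucuronate. Hepatocytes are the main site of all 3 reactions, and their substrates include bilirubin, steroid and thyroid hormones, drugs and plant phenols of the feed. Protein and promoter sequences of these genes were not used here. In the order of genes of RefSeq (ARS-UCD2.0, in which 30 of the 32 symbols were found), *GSTA2*, *GSTA1*, *GSTA5*, *GSTA3* and *GSTA4* follow each other, as do *UGT2A1*, *SULT1B1*, *SULT1D1* and *SULT1E1*. *SULT1C2* lies beside *SULT1C3*, *GSTT1* beside *GSTT2* and *GSTO1* beside *GSTO2*.

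The libraries held 11675775 to 36675542 gene-assigned reads, of which the 35 genes took from 0.518% to 0.867%. The summed normalized counts of 8 hepatocyte markers lay between 2197150 and 4405080, and 0 of these markers were at 0. GLY_LC cow 912 had the lowest hepatocyte sum of all cows and 9456 normalized counts of 8 intestinal epithelium markers, against at most 2182 in any other cow. It also had the lowest value of all 31 cows in 12 of the 26 conjugation genes with a mean of at least 100 normalized counts, among them *UGT1A1*, *GSTA3* (ENSBTAG00000021516), *GSTT1*, *GSTT2*, *MGST1* and all 3 GSTM rows. The next most frequent lowest cow was so in 2 genes. Counts of the 32 genes and of the gene lists, and the differences of genes with an unadjusted p under 0.05, were also computed without it. Between HC and LC cows, 5 of 5 stellate cell and fibroblast markers were lower (7.81% of all genes were) and 3 of 6 macrophage markers were higher (5.88% of all genes) at an unadjusted p under 0.05, with 1 of each list called, whereas 0 of 4 bile duct, 0 of 4 endothelial, 0 of 4 lymphocyte and 0 of 7 portal hepatocyte markers passed. CON_LC cow 103 had a stellate and fibroblast sum of 33656 normalized counts, against at most 7893 in any other cow. Without it 2 of the 5 markers were lower, and without cow 912 it was 3 of 5, with 1 called in each fit. In both fits 3 of 6 macrophage markers were still higher, but 0 were called. Of 8 intestinal markers, 7 were lower in HC and 7 higher in GLY with all cows (4 and 0 called), whereas without cow 912 only 3 of the 8 had enough reads to be tested and 0 of these passed in either comparison. Between HC and LC, central vein hepatocyte markers were lower in 2 of 7 cases (*CYP1A2* and *GLUL*), and hepatocyte markers were higher in 2 of 8. Without cow 912 the same 2 central vein markers were lower, with 1 called, and hepatocyte markers were higher in 3 and lower in 1 of 8. The part of these cell types in the levels below was not tested. In bulk tissue, fewer cells of a type and less RNA per cell cannot be told apart.

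**Figure D1:**
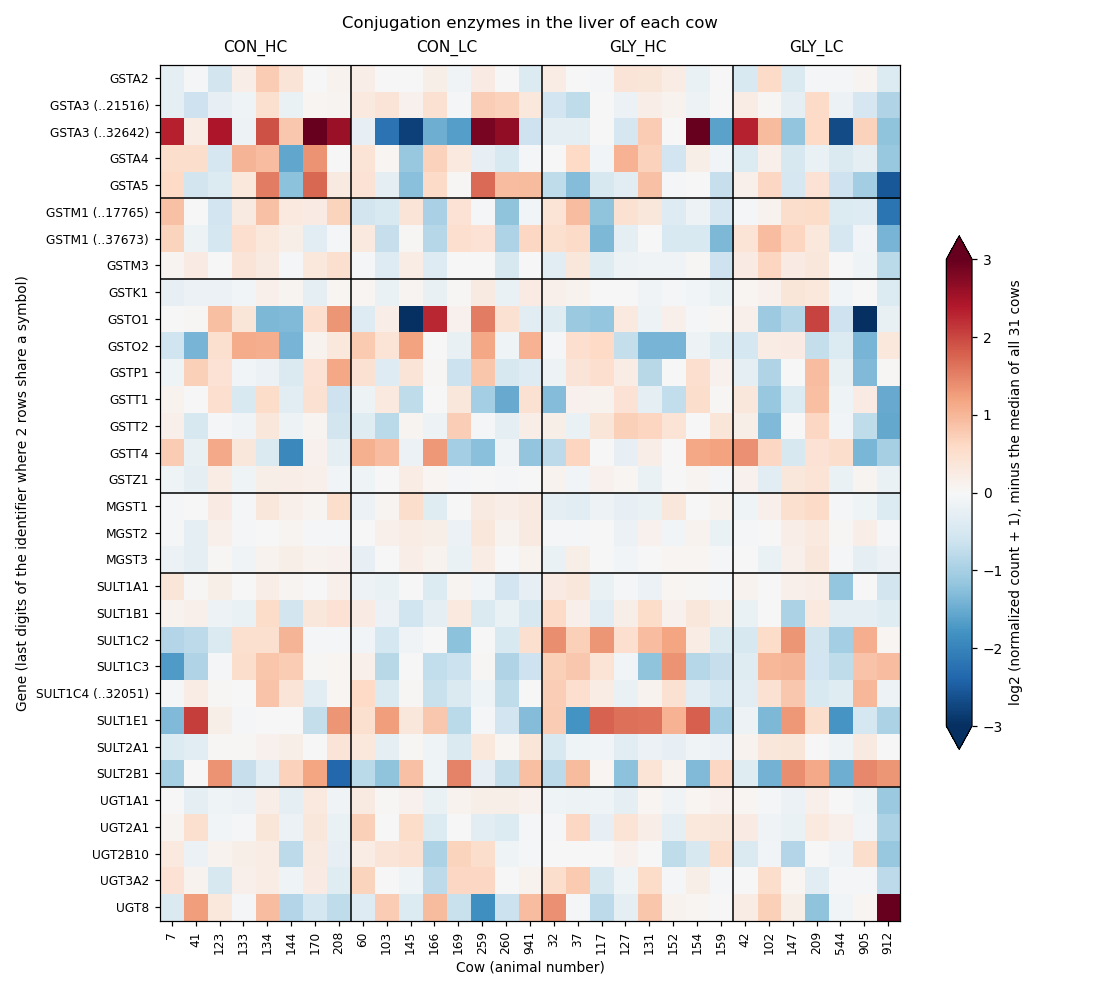
Each row is 1 of the 32 tested genes and each column 1 cow, ordered by group. Colour gives log2 of the normalized count plus 1, minus the median of the 31 cows. Rows such as MGST2, MGST3 and GSTZ1 are nearly even, the second GSTA3 row, GSTO1 and SULT1E1 differ from cow to cow within groups, and GLY_LC cow 912 is low in most GST and UGT rows.

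No conjugation enzyme passed the thresholds of an unadjusted p under 0.05 and an adjusted p under 0.1 (edgeR quasi-likelihood test, Benjamini-Hochberg over all genes tested) in any of the 7 comparisons. The feed concentrate was the factor with the larger number of nominal differences, as it was over all genes (13.7%, against 3.92% between GLY and CON). Between all HC and all LC cows, with treatment as a covariate, 0 of 32 genes were called, against 1.45% of all genes tested, and 7 (21.9%) had an unadjusted p under 0.05, against 13.7% of all genes. *SULT1B1*, *GSTA4*, *SULT1A1* and *SULT1E1* were the 4 that were higher in HC (12.5% of the genes, against 5.88% of all genes tested), and *GSTA3* (ENSBTAG00000021516), *MGST2* and *SULT2A1* were the 3 that were lower (9.38%, against 7.81%). DESeq2 on all cows called 2 of the 7, *SULT1B1* (adjusted p = 0.0678) and *MGST2* (adjusted p = 0.0894). The share of all genes that DESeq2 called was not counted, and 1.45% is the share for edgeR. The signs were nearly balanced, with 17 genes higher and 15 lower in HC and a median log2 fold change of 0.03, against -0.01 over all genes.

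The separate comparisons of CFP gave 0 calls as well. Between CON_HC and CON_LC, 4 of 32 genes (12.5%) had an unadjusted p under 0.05, against 5.96% of all genes, of which 0% were called. *GSTM3* and *SULT1A1* were higher in CON_HC (2.71% of all genes were) and *GSTA3* (ENSBTAG00000021516) and *MGST2* were lower (3.25% of all genes). Between GLY_HC and GLY_LC the count was 5 (15.6%), against 12.5% of all genes, of which 0.201% were called. *SULT1B1*, *GSTA4*, *GSTT2* and *SULT1E1* were higher in GLY_HC (5.06% of all genes were) and *SULT2A1* was lower (7.45% of all genes). DESeq2 on all cows called 0 conjugation enzymes in either. Fitted to the 2 compared groups alone, DESeq2 called *SULT1A1* (adjusted p = 0.0578), *GSTA3* (ENSBTAG00000021516, adjusted p = 0.0759) and *GSTM3* (adjusted p = 0.0972) in CON and *SULT2A1* (adjusted p = 0.0407) in GLY. The share of all genes called in these DESeq2 fits was not counted. Without cow 912 the GLY count was 4 (12.5%, against 8.37% of all genes, 0 of which were called), with *SULT1B1*, *SULT2A1*, *GSTM3* and *MGST2*. Of the 32 genes, 18 (56.2%) differed between HC and LC in the same direction in CON and in GLY groups, which share no cows, against 58.1% of all genes.

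The ration with GLY residues gave smaller counts, as it did over all genes. With CFP as a covariate, 0 of 32 genes were called between GLY and CON cows, as were 0% of all genes, and 4 (12.5%) had an unadjusted p under 0.05, against 3.92% of all genes. *SULT1C2* was higher in GLY (2.48% of all genes were), and *GSTA5*, *GSTO2* and *GSTA3* (ENSBTAG00000021516) were lower (1.45% of all genes). Without cow 912 the count was 3 (9.38%, against 2.76% of all genes), and *GSTA3* was no longer among them. Between GLY_HC and CON_HC, 2 genes passed that threshold (6.25%, against 2.92% of all genes, 0% called), *SULT1C2*, which was higher (1.6% of all genes were), and *GSTM3*, which was lower (1.31%). Between GLY_LC and CON_LC there were 3 (9.38%, against 5.65% of all genes, 0.0628% called), *SULT1C3*, which was higher (3.71% of all genes were), and *GSTA3* (ENSBTAG00000021516) and *GSTO2*, which were lower (1.94%). Without cow 912 there were also 3, *GSTM3*, *GSTA3* and *GSTO2*, against 3.07% of all genes with 0 called, and with any 1 cow left out the count ran from 2 to 7. In both comparisons edgeR and DESeq2 on all cows called 0 of the 32. In the interaction of GLY with CFP, 1 gene, *GSTM3*, was below that threshold, with a negative sign (3.12%, against 4.21% of all genes in either direction, 1.9% positive and 2.31% negative, 0% called), and both tools called 0. Without cow 912 there were 2, *GSTM3* and *SULT2A1* (6.25%, against 3.47% of all genes). With CFP as a covariate, 11 of the 32 genes were higher and 21 lower in GLY, with a median log2 fold change of -0.03, against 0.00 over all genes, but without cow 912 the split was even, with 16 higher.

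**Figure D2:**
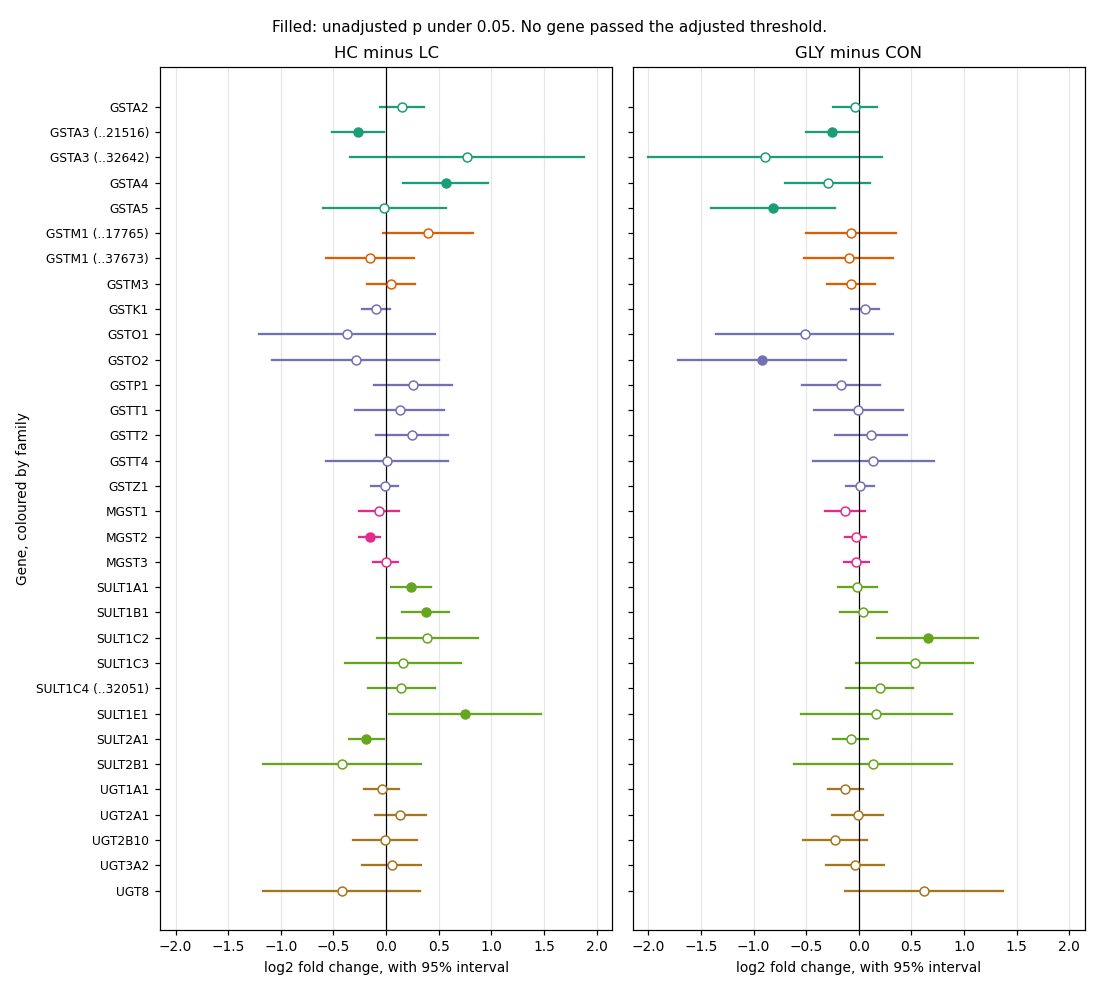
Points give the log2 fold change of each gene between HC and LC cows (left) and between GLY and CON cows (right), with 95% intervals, and colours mark families. Filled points have an unadjusted p under 0.05, 7 on the left and 4 on the right, and 0 passed the adjusted threshold.

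Among the sulfotransferases, *SULT1B1* was the conjugation enzyme with the smallest p between HC and LC. Its product sulfates thyroid hormones and small phenols. Normalized counts were 518, 827 and 1116 in CON_HC (lowest, median and highest cow) and 498, 642 and 927 in CON_LC. In GLY_HC they were 605, 850 and 1132, and in GLY_LC 388, 631 and 922. The ranges overlapped, but 14 of 16 HC cows lay above the LC median and 6 above every LC cow. The log2 fold change was 0.38 (standard error, SE, 0.12, 95% interval 0.15 to 0.60, adjusted p = 0.125). It was 0.30 within CON and 0.46 within GLY groups, and 0.36 without cow 912.

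*SULT1A1*, the main phenol sulfotransferase of liver, was higher in HC by 0.24 on the log2 scale (SE 0.10, adjusted p = 0.251). Normalized counts ran from 14713 over a median of 16179 to 19081 in CON_HC and from 9987 over 13139 to 15851 in CON_LC. All 8 CON_HC cows lay above the CON_LC median and 4 above the highest CON_LC cow. In GLY_HC the lowest, median and highest values were 12993, 14944 and 18849, and in GLY_LC 6627, 14863 and 17033, so the medians of both GLY groups nearly coincided. The difference was 0.31 in CON groups (SE 0.13, adjusted p = 0.775) and 0.16 in GLY groups (SE 0.14, adjusted p = 0.691), and the interaction was -0.15 (95% interval -0.53 to 0.22).

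*SULT1E1*, the oestrogen sulfotransferase, varied widely between cows of the same group. GLY_HC had 61.4, 560 and 751 normalized counts (lowest, median and highest) and GLY_LC had 62.7, 148 and 529. CON_HC had 84.9, 215 and 905, and CON_LC 86.7, 241 and 519. Thus 4 of 8 GLY_HC cows lay above every GLY_LC cow, while 1 lay below all of them, and the medians of the CON groups were in the opposite order. HC was higher by 0.75 over all cows (SE 0.37, adjusted p = 0.362), by 1.21 in GLY groups (SE 0.52) and by 0.32 in CON groups (SE 0.50). Without cow 912 the difference between all HC and LC cows was 0.68 and its unadjusted p was no longer under 0.05.

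*SULT2A1*, which sulfates bile acids and hydroxysteroids, was the sulfotransferase that was lower in HC at an unadjusted p under 0.05. GLY_HC ranged from 11004 over a median of 13218 to 14182 normalized counts and GLY_LC from 13730 over 16167 to 19226. All 8 GLY_HC cows lay below the GLY_LC median and 5 below the lowest GLY_LC cow. In CON_HC (11255, 15318 and 19504) and CON_LC (11195, 15468 and 19323) the ranges were almost the same. The log2 fold change was -0.35 in GLY groups (SE 0.12, adjusted p = 0.219) and -0.03 in CON groups (95% interval -0.26 to 0.19), and the interaction was -0.31 (adjusted p = 0.999). All 8 GLY_HC cows also lay below the CON_HC median, with a difference of -0.23 between these groups (SE 0.11, adjusted p = 1). *SULT1A1* and *SULT2A1*, like *GSTA3* and *GSTM3*, were named by the study from these same cows, which are not independent evidence of the direction.

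**Figure D3:**
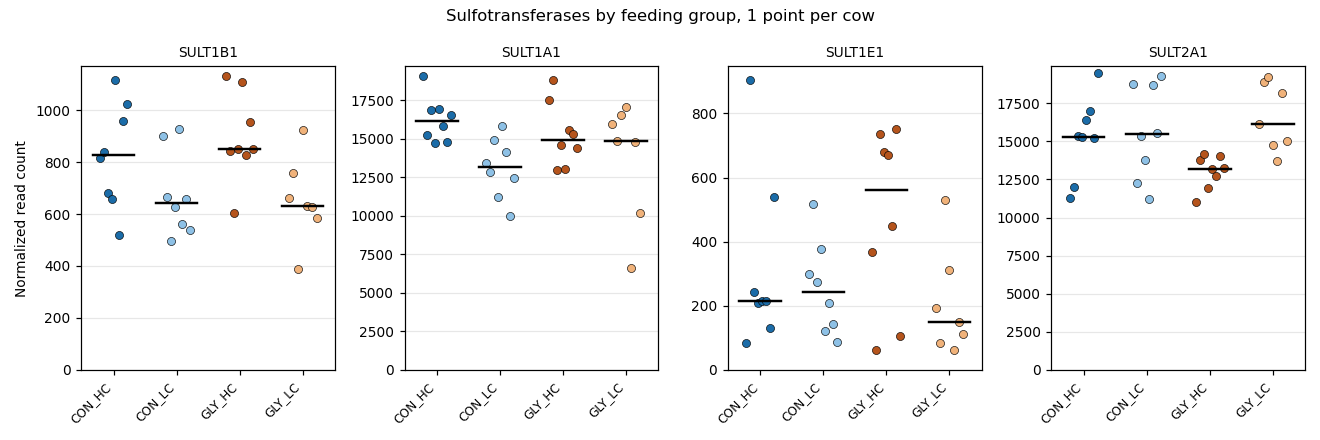
Normalized read counts of 4 sulfotransferases are shown per cow (points) with the group median (bars), on axes that start at 0. The median of SULT1B1 is higher in both HC groups, that of SULT1A1 in CON_HC than in CON_LC, and that of SULT2A1 is lowest in GLY_HC (13218), whereas SULT1E1 spreads from 61.4 to 905 across cows.

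The neighbours *SULT1C2* and *SULT1C3*, sulfotransferases of phenols and xenobiotics, had few reads, 505 and 470 over all cows. *SULT1C2* had 9.48, 24 and 36.4 normalized counts in GLY_HC and 6.7, 12.7 and 27.7 in CON_HC (lowest, median and highest), and 5.97, 13.7 and 34.2 in GLY_LC against 4.98, 12.3 and 18.6 in CON_LC. The ranges overlapped, with 11 of 15 GLY cows above the CON median and 5 above every CON cow. It was higher in GLY by 0.66 (SE 0.24, adjusted p = 0.968), by 0.76 under high and 0.54 under low CFP. *SULT1C3* was higher by 0.92 in GLY_LC than in CON_LC (SE 0.40, adjusted p = 0.8), with medians of 26.6 and 8.78, and by 0.16 in GLY_HC than in CON_HC (SE 0.39). Without cow 912 the low-CFP difference was 0.82 and no longer had an unadjusted p under 0.05. The tested *SULT1C4* row and *SULT2B1* had no unadjusted p under 0.05 in any comparison. *SULT1C4* ranged from 2230 to 7594 normalized counts and *SULT2B1* from 1.14 to 29.9.

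The alpha-class glutathione transferases, which also bind bilirubin and reduce lipid hydroperoxides, differed from each other in the sign of their HC versus LC difference, although they are neighbours on the chromosome. *GSTA4*, which conjugates the lipid peroxidation product 4-hydroxynonenal, had 886, 3758 and 6589 normalized counts in CON_HC and 1189, 2615 and 4201 in CON_LC (lowest, median and highest). GLY_HC had 1742, 2772 and 5376, and GLY_LC 1175, 1955 and 2888. The lowest of all cows was in CON_HC, yet 13 of 16 HC cows lay above the LC median. HC was higher by 0.56 (SE 0.21, 95% interval 0.16 to 0.97, adjusted p = 0.200), by 0.48 in CON and 0.66 in GLY groups. Without cow 912 it was higher by 0.52 over all cows, and the difference in GLY groups (0.56) no longer had an unadjusted p under 0.05.

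*GSTA3* (ENSBTAG00000021516), which in steroid-forming tissue also isomerizes steroid precursors, differed by -0.27 on the log2 scale when HC was set against LC (SE 0.13, adjusted p = 0.334). CON_LC stood apart with 22352, 29578 and 38474 normalized counts (lowest, median and highest), against 14977, 20736 and 32175 in CON_HC. GLY_HC had 13738, 22104 and 26632, and GLY_LC 12434, 20480 and 34289. Of 8 CON_HC cows, 5 lay below every CON_LC cow, as did 4 of 7 GLY_LC cows. The log2 fold change was -0.47 between CON_HC and CON_LC (SE 0.17, adjusted p = 0.686) and -0.47 between GLY_LC and CON_LC (SE 0.18, adjusted p = 0.657). These comparisons share the CON_LC cows. Between GLY_HC and GLY_LC it was -0.05 (95% interval -0.40 to 0.29), and the interaction was 0.41 (SE 0.24, adjusted p = 0.999). Without cow 912 the difference between GLY_LC and CON_LC was -0.37.

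The second *GSTA3* row (ENSBTAG00000032642) had the widest spread of the alpha class, from 16.3 normalized counts in CON_LC cow 145 to 1791 in CON_HC cow 170. The lowest, median and highest cows were at 108, 534 and 1791 in CON_HC and at 16.3, 60.2 and 863 in CON_LC. In GLY_HC they were at 39.0, 109 and 979, and in GLY_LC at 17.9, 182 and 600. All 8 CON_HC cows lay above the CON_LC median, but 2 CON_LC cows reached 762 and 863. The difference of 1.29 in CON groups had a SE of 0.79 (adjusted p = 0.894). Rows that share a symbol may share sequence, and with unique mapping reads common to both are not counted, so that the levels of such rows are uncertain.

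*GSTA2* had 11510 to 28609 normalized counts over all cows and differed by 0.15 between HC and LC (95% interval -0.06 to 0.36) and by -0.03 between GLY and CON (95% interval -0.25 to 0.18). *GSTA5* was a low gene with 6.08 to 134 normalized counts in a cow. Its medians were 49.1 in CON_HC, 56.9 in CON_LC, 30 in GLY_HC and 27.8 in GLY_LC, and 12 of 15 GLY cows lay below the CON median. The log2 fold change between GLY and CON was -0.82 (SE 0.30, adjusted p = 0.968), and was nearly the same under high (-0.80) and low CFP (-0.83). The HC versus LC difference was -0.02 (95% interval -0.60 to 0.57).

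*GSTM3*, a mu-class enzyme of the cytosol, had the smallest p of the 32 genes in the interaction, with CFP differences of opposite sign in CON and GLY groups. CON_HC had 3694, 4527 and 5252 normalized counts (lowest, median and highest) and CON_LC 2728, 3699 and 4426. GLY_HC had 2465, 3462 and 4795, and GLY_LC 2140, 4446 and 5910. Of the CON_HC cows, 5 lay above every CON_LC cow, whereas 7 of 8 GLY_HC cows lay below the GLY_LC median and 6 below every CON_HC cow. The log2 fold change between HC and LC was 0.34 in CON groups (SE 0.15, adjusted p = 0.775) and -0.27 in GLY groups (SE 0.15, 95% interval -0.56 to 0.03). The interaction was -0.61 (SE 0.21, 95% interval -1.02 to -0.20, adjusted p = 0.999). Cow 912 had the lowest *GSTM3* of all cows, and without it the interaction was -0.72 (adjusted p = 1). Both *GSTM1* rows, which stand for mu-class enzymes that detoxify epoxides, had interactions of the same sign with wide errors, -0.49 (SE 0.43) for ENSBTAG00000037673 and -0.42 (SE 0.43) for ENSBTAG00000017765. ENSBTAG00000037673 ranged from 1632 to 8133 and ENSBTAG00000017765 from 595 to 5216 normalized counts, with cow 912 at the lower end of both.

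Of the other glutathione transferases, *GSTT2*, a theta-class enzyme, had its highest median in GLY_HC. Normalized counts were 3555, 5250 and 6700 in GLY_HC (lowest, median and highest), 1394, 3870 and 6293 in GLY_LC, 2799, 3850 and 5183 in CON_HC and 2310, 3806 and 6769 in CON_LC. The lowest value was that of cow 912, and 7 of 8 GLY_HC cows lay above the GLY_LC median. The difference in GLY groups was 0.57 (SE 0.24, adjusted p = 0.322), and without cow 912 it was 0.43 and no longer had an unadjusted p under 0.05. In CON groups it was -0.05 (95% interval -0.51 to 0.40). *GSTZ1*, which breaks down tyrosine as maleylacetoacetate isomerase, had medians of 5319, 5143, 5261 and 5476 in CON_HC, CON_LC, GLY_HC and GLY_LC. Its 95% interval was -0.14 to 0.12 between HC and LC and -0.12 to 0.14 between GLY and CON. *GSTO2*, an omega-class enzyme that reduces dehydroascorbate, had at most 5 reads in a cow and 58 in all. Its log2 fold change of -0.92 between GLY and CON (SE 0.41, adjusted p = 1) rests on medians between 0.995 and 3.03 normalized counts per group.

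Among the microsomal enzymes, *MGST2*, which conjugates glutathione to leukotriene A4 and to lipid electrophiles, had 1512, 1766 and 2008 normalized counts in CON_HC (lowest, median and highest) and 1612, 2040 and 2308 in CON_LC. GLY_HC had 1573, 1742 and 1996, and GLY_LC 1736, 1874 and 2239. All 16 HC cows lay below the LC median. The log2 fold change was -0.16 (SE 0.05, 95% interval -0.26 to -0.05, adjusted p = 0.162), with -0.17 in CON and -0.14 in GLY groups. *MGST1*, the abundant enzyme of the endoplasmic reticulum and the outer mitochondrial membrane, ranged from 7504 to 14885 and differed by -0.07 between HC and LC (95% interval -0.26 to 0.12). Its median was 8862 in GLY_HC and 10885 in CON_HC, a log2 fold change of -0.24 (SE 0.13, adjusted p = 1). *MGST3* ranged from 1210 to 1877, with a 95% interval of -0.12 to 0.12 between HC and LC and -0.15 to 0.09 between GLY and CON.

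**Figure D4:**
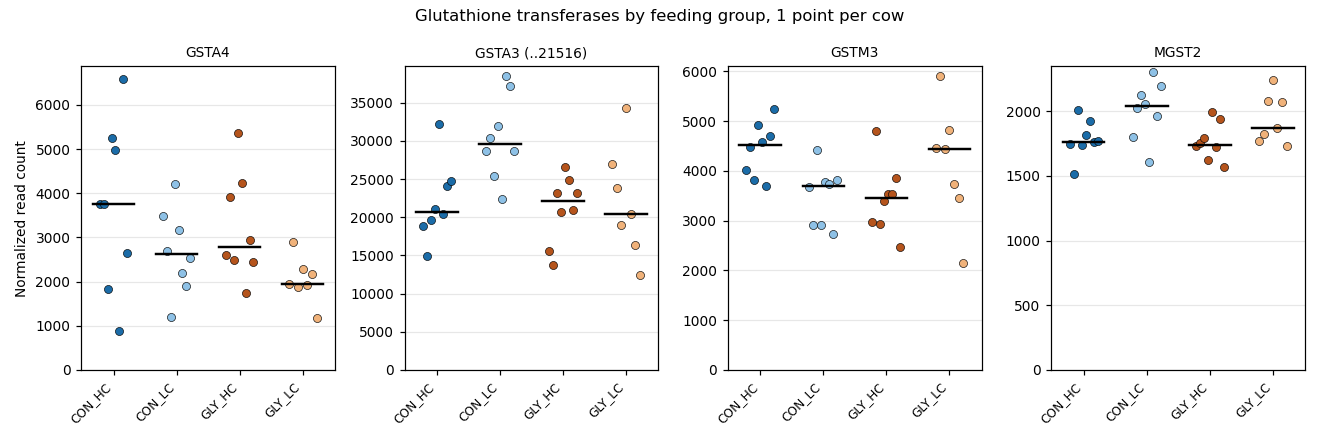
Normalized read counts of 4 glutathione transferases are shown per cow (points) with the group median (bars), on axes that start at 0. In CON and in GLY the median of GSTA4 is higher and that of MGST2 lower in HC, the median of GSTA3 (ENSBTAG00000021516) is highest in CON_LC (29578), and those of GSTM3 are higher in CON_HC and GLY_LC than in the other two groups.

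None of the 5 UGT genes had an unadjusted p under 0.05 in any comparison. *UGT1A1*, which conjugates bilirubin, had 19084, 21332 and 28370 normalized counts in CON_HC (lowest, median and highest), 20130, 25360 and 27684 in CON_LC, 19251, 21324 and 25118 in GLY_HC and 10633, 22100 and 25559 in GLY_LC. The low value of GLY_LC was that of cow 912, and the next cow of the group had 20418. The difference was -0.04 between HC and LC (95% interval -0.21 to 0.12) and -0.13 between GLY and CON (95% interval -0.30 to 0.04). *UGT2A1* ranged from 1553 to 4878, with differences of 0.14 (95% interval -0.11 to 0.38) and -0.01 (95% interval -0.25 to 0.23). *UGT2B10*, *UGT3A2* and *UGT8* had differences of -0.01, 0.05 and -0.42 between HC and LC and of -0.23, -0.04 and 0.62 between GLY and CON, with SEs of 0.16, 0.14 and 0.38. *UGT8*, a galactosyltransferase of sphingolipid synthesis rather than a conjugating enzyme, had 80.6 normalized counts in cow 912 and at most 23.2 in any other cow.

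For most of the 32 genes, cows of the same group differed more than in genes of like level. The coefficient of variation within groups was above the median of the 200 genes nearest in mean count for 24 of the 32. It was 119% for the second *GSTA3* row against 15.5%, 90.4% for *GSTO1* against 15.4%, 70.6% for *SULT1E1* against 15.4%, 58.8% for *GSTT4* against 15.8% and 42.2% for *GSTA4* against 14.7%. At the other end *MGST2* had 9.53% against 16.1%, *MGST3* 11.8% against 15.6%, *GSTZ1* 13.1% against 15.6%, *GSTK1* 13.2% against 15.9% and *UGT1A1* 14.7% against 17.5%. *UGT8* had the largest value, 123% against 47.9%, with its highest count in cow 912. All 31 cows entered these values, which were not recomputed without cow 912. *UGT8*, *GSTO1*, *GSTT4* and *GSTK1* were chosen after their values were seen.

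**Figure D5:**
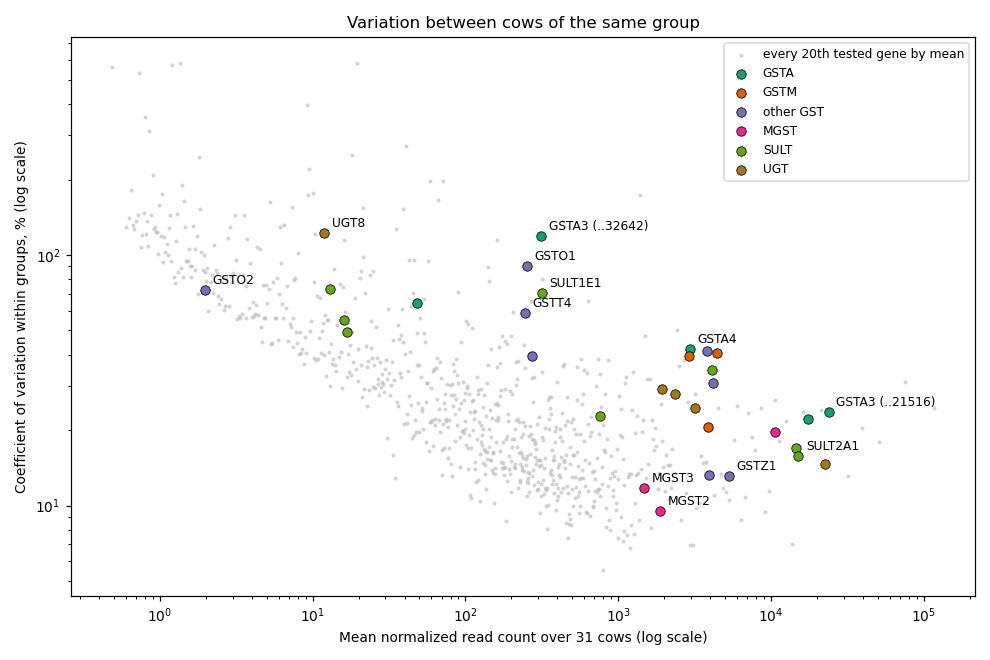
The coefficient of variation within groups is plotted against the mean normalized count over 31 cows, both on log scales, for the 32 genes (coloured by family) and for every 20th tested gene (grey). GSTA3 (ENSBTAG00000032642), GSTO1, SULT1E1 and GSTT4 lie above most genes of like level, and MGST2 (9.53%) lies at the lower edge.

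*GSTO1*, an omega-class enzyme with thioltransferase activity, had almost no reads in a pair of cows and was singled out for that. CON_LC cow 145 had 1 read (1.02 normalized counts) and GLY_LC cow 905 had 5 reads (5.54 normalized counts), whereas the other 29 cows had 82.1 to 1004. Its neighbour *GSTO2* had 5 and 0 reads in these cows and at most 5 in any cow, and the better expressed genes beyond on either side in the RefSeq order were within the range of the others. *ITPRIP* had 163 and 155 normalized counts in cows 145 and 905 (107.9 to 333 in the others) and *SFR1* 68.2 and 69.8 (44.6 to 105). *CFAP43* had 71.3 and 69.8 against a median of 27.5 in the others, of which 1 reached that level. The group medians were 243 (CON_HC), 236 (CON_LC), 196 (GLY_HC) and 136 (GLY_LC). The difference was -0.37 between HC and LC (95% interval -1.21 to 0.46).

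Summed over each family, the ranges of the 4 groups overlapped. The GSTA sum had medians of 44627, 50686, 42357 and 38787 normalized counts in CON_HC, CON_LC, GLY_HC and GLY_LC, the SULT sum 35999, 33014, 33557 and 36024, and the UGT sum 27814, 33293, 29995 and 29852. Such sums weigh genes by length as well as by abundance. Cow 912 was the lowest cow for the GSTA, GSTM, MGST, UGT and other GST sums.

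Across cows, the 2 most-read genes varied together in 5 of the 6 families by Pearson's r and in 4 by Spearman's rho (adjusted p under 0.05). Correlations of log2 CPM, centred on the group means, were computed for 6 pairs (permutation tests over 31 cows, adjusted over the 6 pairs). Pairs of other genes were not correlated, so whether these relations exceed those of other liver genes was not tested. Where r was also computed without 2 cows, cow 912 was 1 of them for the GSTA, GSTM and UGT pairs only. *GSTM1* (ENSBTAG00000037673) and *GSTM3* had the closest relation, with Pearson's r = 0.745 (p = 1e-05, the smallest that the permutations can give, adjusted p = 6e-05), Spearman's rho = 0.665 (p = 9e-05, adjusted p = 0.00054) and r = 0.663 without the 2 cows farthest from the median. For *UGT1A1* and *UGT2A1* r was 0.600 (permutation p = 0.00039, adjusted p = 0.00117) and rho 0.481 (p = 0.00685, adjusted p = 0.0205), but r was 0.370 without 2 cows, one of them cow 912. For *GSTZ1* and *GSTT2* r was 0.540 (permutation p = 0.0018, adjusted p = 0.0036) and rho 0.447 (p = 0.012, adjusted p = 0.024), with r = 0.350 without 2 cows. *MGST1* and *MGST2* gave r = 0.420 (permutation p = 0.0193, adjusted p = 0.029) and rho = 0.408 (p = 0.0236, adjusted p = 0.0353), with r = 0.386 without 2 cows. *GSTA3* (ENSBTAG00000021516) and *GSTA2* gave r = 0.373 (permutation p = 0.0395, adjusted p = 0.0474) and rho = 0.321 (p = 0.0784, adjusted p = 0.094), with r = 0.339 without 2 cows. For *SULT2A1* and *SULT1A1* no relation was found, with r = 0.110 (permutation p = 0.56, adjusted p = 0.56), rho = 0.056 (p = 0.765, adjusted p = 0.765) and r = 0.306 without 2 cows. Libraries are shared by the genes of a pair. Reads common to near-identical paralogs are not counted, so that the levels of such genes are uncertain.

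Between HC and LC, 2 of 37 tested genes of glutathione supply and breakdown, sulfate and PAPS supply and UDP-glucuronate supply were called (5.41%, against 1.45% of all genes). Without cow 912 only *SQOR* was called among them, with 0.863% of all genes called. *UGDH*, which oxidizes UDP-glucose to the UDP-glucuronate used by all UDP-glucuronosyltransferases, fell in HC by 0.44 on the log2 scale (SE 0.12, adjusted p = 0.086). Its lowest, median and highest normalized counts were 4586, 6232 and 8658 in HC and 4654, 8402 and 13792 in LC cows, with overlapping ranges. Cow 912 had 12217, the highest of its group, and without it the value was -0.39 and was no longer called (adjusted p = 0.130). Between CON_HC and CON_LC the log2 fold change of *UGDH* was -0.56 (SE 0.16, adjusted p = 0.465). Between GLY_HC and GLY_LC its unadjusted p was not under 0.05. *SQOR*, which oxidizes hydrogen sulfide in mitochondria on the way to sulfate, fell by 0.28 (SE 0.07, adjusted p = 0.0723), from a median of 2106 in LC to 1779 in HC cows, and by 0.29 without cow 912 (adjusted p = 0.0886). *UGDH* was called in 17 and *SQOR* in 23 of the 31 fits that left out 1 cow.

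Taken by list, HC versus LC gave 1 gene higher and 2 lower at an unadjusted p under 0.05 among 16 genes of glutathione supply and breakdown, of which 0 were called. Over all genes, 5.88% were higher and 7.81% lower at that threshold. *GGT1*, the gamma-glutamyltransferase that opens glutathione breakdown, was higher by 0.26 (SE 0.11, adjusted p = 0.250). *CHAC1* and *DPEP1*, enzymes of glutathione and cysteinyl-glycine breakdown, had 156 and 146 normalized counts in cow 912 and at most 7.43 and 1.07 in any other cow. They were the 2 lower genes, and without cow 912 the counts were 1 higher and 0 lower of 15 tested. Among 13 genes of sulfate and PAPS supply *SQOR* alone passed, and among 8 of UDP-glucuronate supply *UGDH* was lower and *SLC35D2*, a nucleotide sugar transporter, higher by 0.20 (SE 0.08). Of 10 acetyl- and methyltransferases 1 passed, *HNMT* (histamine methyltransferase, higher by 0.40), of 8 genes of acyl and amino acid conjugation 1, *ACSM5* (higher by 0.38), and of 6 genes that remove conjugates 2, *GUSB* (beta-glucuronidase, higher by 0.11) and *SUMF1* (sulfatase activator, higher by 0.14). The medians of these 6 lists lay between -0.16 and 0.08, against -0.01 over all genes. Between GLY and CON, 5 of the 16 genes of glutathione supply and breakdown were higher at an unadjusted p under 0.05 (2.48% of all genes were). They were *CHAC1*, *DPEP1*, *GGT1*, *GGT6* and *LAP3*. Without cow 912 there were 2 of 15, *LAP3* and *GGT1* (1.24% of all genes). With all cows, 1 acetyl- or methyltransferase was higher and 1 of 6 genes that remove conjugates was lower at an unadjusted p under 0.05, and 0 genes of any list were called.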

How the data were processed

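RNA of 31 liver biopsies was sequenced, 1 library per cow, and the authors deposited raw read counts of 24616 Ensembl genes. Reads were checked with FastQC, trimmed with Trim Galore (Phred score of at least 20, length of at least 30), aligned with HISAT2 2.1.0 to the bovine assembly UMD3.1 and, where uniquely mapped, counted with HTSeq 0.8.0. Whether HTSeq used the strand is not given in the sources used here. Reads shared by near-identical paralogs are dropped by such counting. A second deposited table of normalized values was not used, because it holds the same counts after division by size factors. RefSeq symbols and gene order (ARS-UCD2.0) were used for names and neighbours only.

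Groups were taken from the sample titles. The raw counts of all 15916 genes with at least 20 reads summed over the 31 cows were fitted in R 4.3.3 with edgeR 4.0.16 (TMM, quasi-likelihood F test, Benjamini-Hochberg adjustment over all genes tested), with 1 model of the 4 groups and additive models for HC versus LC and GLY versus CON. Calls needed both an unadjusted p under 0.05 and an adjusted p under 0.1. Standard errors (SE) were obtained by dividing a log2 fold change by the root of its F statistic, and 95% intervals are 1.96 standard errors wide on each side. Normalized counts are raw counts divided by the TMM-scaled library size and multiplied by its mean over cows. Over the 105 pairs of cows of the same group, the chi-square per gene was at least 24.5, so no library was a copy of another within sampling noise. The counts of called members and the log2 fold changes of named genes with an unadjusted p under 0.05 were recomputed, where the gene passed the filter, with upper-quartile or RLE scaling, without the low-count filter or with filterByExpr (10 reads), with a robust fit, with DESeq2 1.42.0, at an adjusted p under 0.05, for the 4 pairwise comparisons from fits of the 2 groups alone, and with each cow left out in turn. Gene lists were also counted without GLY_LC cow 912 and without CON_LC cow 103, which was chosen after seeing the data. The fits were also run on simulated counts with a log2 change of 1 between HC and LC in 200 genes. With treatment as a covariate, 199 of these were called, beside 28 false calls. Between CON_HC and CON_LC 178 were called, beside 16 false calls, and between GLY_HC and GLY_LC 191, beside 20. Smaller changes, and changes in genes with fewer reads, were not simulated. Figures were drawn with matplotlib 3.10.9.

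Named are members with an unadjusted p under 0.05 in any of the 7 comparisons, the 2 members with the most reads in each of 6 families, the 4 that the study names, and any whose highest cow exceeds 10 times the median of all cows and 20 normalized counts. In the lists of other conjugation genes, those with an unadjusted p under 0.05 between HC and LC are named. Other genes singled out in the text were chosen after their values were seen. The members and all gene lists were chosen with earlier results of these data known. Totals of 11675775 to 36675542 reads per cow set the precision of low counts. P-values of the fits set a difference between groups against the spread between cows.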

Additional observations from a re-analysis of the deposited data

Results flagged for a closer look

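In groups of 7 or 8 cows, the gap between an extreme cow and its nearest neighbour, relative to the range of the group, was set against Dixon's 95% critical value. Of 128 combinations of a gene and a group 8 exceeded it, where chance alone gives about 1 in 20. The second *GSTA3* row (ENSBTAG00000032642) stood out in 3 groups, with 1791 normalized counts in CON_HC cow 170, 979 in GLY_HC cow 154 and 600.1 in GLY_LC cow 42. *GSTA5* had 74.6 in GLY_HC cow 131. GLY_LC cow 209 had 479 normalized counts of *GSTP1*, with the next cow of the group at 255, and 860 of *GSTO1*, with the next at 234. GLY_LC cow 912 had 10633 of *UGT1A1*, with the next lowest cow at 20418, and 80.6 of *UGT8*, with the next highest at 14.6. Cow 912 is also the cow with the high intestinal marker sum, whose part in these values was not tested.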

How the results depend on the processing

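No paired analysis was possible because each cow has its own number. With all cows, DESeq2 called 2 conjugation enzymes between HC and LC (*SULT1B1* and *MGST2*) where edgeR called 0. When DESeq2 was run on only the 2 compared groups, it called 3 between CON_HC and CON_LC (*GSTM3*, *SULT1A1* and *GSTA3*, ENSBTAG00000021516) and 1 between GLY_HC and GLY_LC (*SULT2A1*). The shares of all genes that DESeq2 called were not counted, so these calls have no share to be set against. With 1 cow left out, the count of calls between HC and LC lay between 0 and 2. It was 2 without CON_LC cow 169 (*SULT1B1* and *MGST2*) and 1 (*SULT1B1*) without CON_HC cow 144 or GLY_LC cow 209, and it lay between 0 and 0 in the other 6 comparisons. The cause of these changes was not tested. The log2 fold changes of the genes named for an unadjusted p under 0.05 kept their sign under all alternatives run, 1090 values for 28 combinations of a gene and a comparison. The calls of *UGDH* and *SQOR* between HC and LC were lost at an adjusted p under 0.05, and that of *UGDH* also without a filter on low counts (adjusted p = 0.101) and in part of the fits that left out 1 cow, among them those without cow 912 (0.130) or CON_LC cow 103 (0.117). *GSTO2*, *SULT1C2* and *SULT1C3* had 58, 505 and 470 reads over all cows. The size of difference that could be detected at such counts was not tested.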

Other observations

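*STS*, the steroid sulfatase that removes sulfate from steroid conjugates, was looked at after its values were seen. Normalized counts were 424, 1175 and 1558 in CON_HC (lowest, median and highest cow), 344, 1235 and 2724 in CON_LC, 274, 624 and 1096 in GLY_HC and 85.1, 622 and 1043 in GLY_LC, with overlapping ranges. GLY differed from CON by -0.91 on the log2 scale (SE 0.29, edgeR adjusted p = 0.808), and the lowest cow was cow 912.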
